A study of Mus musculus with 6 samples.

Results

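The mu class of glutathione S-transferases was followed across the 6 arrays of the series through its 7 mouse genes, Gstm1 to Gstm7. The members were all probe sets that the platform annotation assigned to a single Gstm symbol, whatever their signal, which gave 8 of the 30177 probe sets on the array and 7 of the 19938 genes with a single symbol. Gstm3 was represented by 2 probe sets and each of the other genes by 1. RNA came from villi of the whole intestine of 5-day-old (P5) littermates. C57BL/6 is the background named in the labels, but by the methods only the Villin1-Cre parent line was C57BL/6J and the line with floxed Trpm7 came from another strain. The 3 control arrays carried Trpm7 fl/fl villi, with both Trpm7 alleles floxed and no Cre, and the 3 mutant arrays carried Trpm7 fl/fl;Villin1-Cre villi. TRPM7 is an ion channel fused to a kinase and conducts zinc, magnesium and calcium. The Villin1 promoter drives Cre in the intestinal epithelium, so that other cells of the villus, such as those of the lamina propria, keep the floxed alleles. The study describes 3 littermates of each genotype, but the labels do not tie each array to a single pup, so the p-values measure the spread between these arrays, which may be partly technical.

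Glutathione S-transferases join the thiol of glutathione to electrophilic compounds, and mu-class enzymes are soluble proteins that work as dimers. The conjugates leave the cell through ATP-driven pumps and are trimmed outside it to cysteine conjugates, from which acetylation makes mercapturates. The small intestine meets dietary electrophiles directly, and its enterocytes carry several transferase classes. Many transferase genes are induced through NRF2, a transcription factor that KEAP1 holds at a low level in unstressed cells, and Gstm1 and Gstm3 are known NRF2 targets in the mouse.

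The promoters of the members that changed most are shown with their matches to short regulatory motifs. Each sequence is the 250 bases before an annotated start in RefSeq (build GRCm38.p6), read 5′ to 3′ on the strand of the gene, with the base before the start counted as -1. Capitals mark every match, on either strand, to the letters of 5 motifs. The antioxidant response element core, where NRF2 binds with a small MAF protein, was searched as TGACNNNGC. The AP-1 site, bound by FOS and JUN proteins, was searched as TGACTCA. The xenobiotic response element core, bound by the aryl hydrocarbon receptor, was searched as GCGTG. The remaining motifs were the TATA box, searched as TATAAA, and the GC box of SP1 factors, searched as GGGCGG. Gstm1 lies at chr3:108017974-108018223 (minus strand, the more distal of its 2 starts), Gstm2 at chr3:107986421-107986670 (minus strand), Gstm3 at chr3:107969175-107969424 (minus strand) and Gstm5 at chr3:107895604-107895853 (plus strand).
Gstm1: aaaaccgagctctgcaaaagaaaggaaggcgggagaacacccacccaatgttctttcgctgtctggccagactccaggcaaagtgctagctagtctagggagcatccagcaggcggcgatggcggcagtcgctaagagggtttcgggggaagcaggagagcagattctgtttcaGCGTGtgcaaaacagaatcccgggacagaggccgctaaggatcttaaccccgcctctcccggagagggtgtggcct
Gstm2: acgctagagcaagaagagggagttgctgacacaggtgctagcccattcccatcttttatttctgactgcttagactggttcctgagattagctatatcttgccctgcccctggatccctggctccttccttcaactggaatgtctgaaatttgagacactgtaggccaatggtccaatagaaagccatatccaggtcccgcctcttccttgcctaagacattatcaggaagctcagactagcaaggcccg
Gstm3: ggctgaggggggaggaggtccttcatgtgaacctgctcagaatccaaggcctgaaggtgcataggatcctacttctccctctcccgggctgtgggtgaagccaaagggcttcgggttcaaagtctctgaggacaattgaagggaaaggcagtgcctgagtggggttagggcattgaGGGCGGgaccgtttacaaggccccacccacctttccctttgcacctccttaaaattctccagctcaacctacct
Gstm5: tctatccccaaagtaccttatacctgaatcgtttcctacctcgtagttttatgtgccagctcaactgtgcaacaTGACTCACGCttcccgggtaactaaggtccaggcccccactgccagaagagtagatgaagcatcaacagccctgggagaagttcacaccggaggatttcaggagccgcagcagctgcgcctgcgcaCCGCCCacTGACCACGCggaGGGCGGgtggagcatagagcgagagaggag

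The 7 genes had 12 such windows, and a match describes letters only, not binding. Some of these windows overlap, as those of the 2 Gstm4 starts do. Their counts were not tested against the shares over all windows. TGACNNNGC stood in 10.2% of the 32851 windows of all genes and in 2 of the 12 Gstm windows, those of Gstm5 at -42 to -34 and of 1 of the 2 Gstm7 starts at -129 to -121. The windows of Gstm1, Gstm2 and Gstm3 did not hold these letters, but bases outside the windows were not searched. GCGTG stood in 28.2% of all windows and in 3 Gstm windows. It lay at -76 to -72 before the distal Gstm1 start, a site that the window of the nearer start also covers, and on the opposite strand of Gstm5 at -171 to -167 and at -38 to -34. Gstm5 alone among the Gstm windows held TGACTCA, at -176 to -170, against 4.46% of all windows, and this match overlaps its more distal GCGTG match, while its nearer GCGTG match lies inside TGACNNNGC. GGGCGG stood in 32.7% of all windows and in 5 Gstm windows, 1 of Gstm3 (at -74 to -69), 2 of Gstm4, 1 of Gstm5 and 1 of Gstm7. TATAAA, in 12.4% of all windows, was held by 1 Gstm7 window and by the nearer Gstm1 start, at -30 to -25. The Gstm2 window held none of the motifs.

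The arrays were checked against their labels first. Trpm7 read 9.11, 8.96 and 9.03 on the control arrays and 8.03, 7.79 and 7.88 on the mutant arrays, in log2 signal units as deposited, and all mutant arrays lay below all control arrays (limma adjusted p = 0.000190). Villin (Vil1), a marker of the villus epithelium, read 12.23 to 12.28 in control and 12.39 to 12.66 in mutant villi. Transcripts of sex-linked genes did not follow 1 sex per array: control replicates 2 and 3 held Xist at 9.82 and 9.66 together with the Y-linked Eif2s3y at 7.71 and 7.84. Control replicate 1 and mutant replicate 1 held Xist at 10.48 and 10.18 with Eif2s3y at 3.63 and 3.56, and mutant replicates 2 and 3 held Eif2s3y at 8.38 and 8.50 with Xist at 4.76 and 5.26. With control replicates 2 and 3 averaged into 1 sample, the Gstm calls were still 4 higher and 1 lower.

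In mutant villi, 3 Gstm genes rose, 1 fell and 3 were not called (limma, adjusted p of 0.05 or less after Benjamini-Hochberg correction across the whole array). Gstm1 and both probe sets of Gstm3 rose about 8-fold, Gstm2 rose less, and Gstm5 fell. By probe set this was 4 of 8 higher, where 8.04% of all probe sets were higher, and 1 of 8 lower, where 8.82% were lower, or 5 of 8 in either direction against 16.9%. By gene, 9.39% of all genes were higher, 10.1% lower and 19.5% either. With a change of at least 2-fold required as well, 3 Gstm probe sets were higher and 1 lower, against 1.35% and 1.17% of all probe sets. Centring each array on its median left the Gstm calls at 4 higher and 1 lower, while the calls over all probe sets went from 2427 higher and 2661 lower to 1996 and 3456. The median change of the 8 was 0.74 on the log2 scale, beside 0.003 over all probe sets. In villi as a mixed tissue, a different number of expressing cells and a different amount of RNA per cell cannot be told apart.

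**Figure D1:**
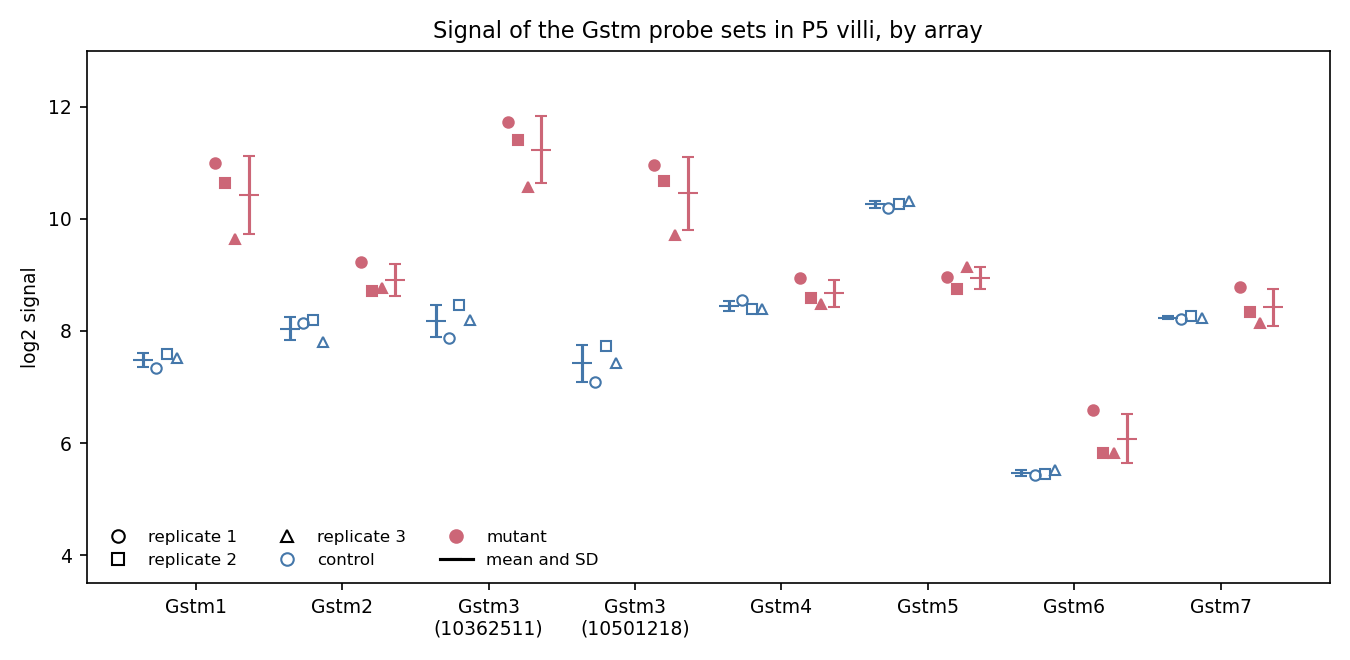
Log2 signal (vertical axis, deposited values) of the 8 Gstm probe sets on each of the 3 control and 3 mutant arrays, with points for arrays and lines for group means with SD. Gstm1, Gstm2 and Gstm3 lay higher on every mutant array than on any control array, Gstm5 lay lower, and the groups overlapped for Gstm4 and Gstm7.

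Gstm1, whose product is a widely expressed mu-class subunit, read 7.34, 7.59 and 7.52 in control villi and 10.99, 10.64 and 9.64 in mutant villi (probe set 10501229). Every mutant array lay above every control array, with 2.05 log2 units between the nearest arrays. The mean went from 7.48 ± 0.13 to 10.42 ± 0.70 (SD, n = 3 each), a rise of 2.94 ± 0.30 (SE) or 7.67-fold, with a limma adjusted p of 0.000619.

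Gstm3 read 7.88, 8.46 and 8.19 in control villi and 11.73, 11.41 and 10.57 in mutant villi with probe set 10362511. The groups were again apart, by 2.11 log2 units, and mutant replicate 3 was again the lowest of the mutant arrays. Its rise was 3.06 ± 0.28 (SE) or 8.34-fold, with a limma adjusted p of 0.000402. The other Gstm3 probe set, 10501218, read 7.09, 7.74 and 7.43 in control and 10.97, 10.67 and 9.72 in mutant villi. The order of the 6 arrays was the same with both, and the rise with the second was 3.03 ± 0.31 (SE) or 8.19-fold (limma adjusted p = 0.000594). Both carry the symbol Gstm3 in the annotation, so they were counted as 2 readings of 1 gene. Where their probes bind was not tested. Among all 30177 probe sets, ordered by the size of the rise, the Gstm3 probe sets stood at places 27 and 28 and Gstm1 at place 31.

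Gstm2 read 8.14, 8.19 and 7.80 in control villi and 9.23, 8.71 and 8.77 in mutant villi (probe set 10501222). The groups did not overlap, but the nearest arrays were only 0.52 apart. The rise was 0.86 ± 0.16 (SE), or 1.82-fold, with a limma adjusted p of 0.00899 and a 95% interval from 0.49 to 1.23.

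Gstm5 ran the other way. It read 10.19, 10.27 and 10.32 in control villi and 8.96, 8.75 and 9.14 in mutant villi (probe set 10495243). All mutant arrays lay below all control arrays, with 1.05 between the nearest. Mean signals were 10.26 ± 0.07 and 8.95 ± 0.20 (SD, n = 3 per genotype), so that Gstm5 fell by 1.31 ± 0.11 (SE) in log2 units and was 2.48-fold lower, with a limma adjusted p of 0.000233. Goblet cell transcripts fell on the same arrays. Of 6 measured goblet cell markers 5 fell and 1 was not called, and their mean signal was 11.28 to 11.52 in control and 8.93 to 9.43 in mutant villi. Muc2, the main intestinal mucin, went from 11.67 ± 0.02 to 8.98 ± 0.10 (SD, n = 3 each). By qPCR of whole duodenum, not of isolated villi, the paper reports Muc2 as not altered. Of 5 Paneth cell genes 2 fell and 2 rose, and of 7 enteroendocrine genes 2 fell and 1 rose. The part of the goblet cell fall, or of these other falls, in the Gstm5 result was not tested. Markers of enterocytes had a mean signal of 12.78 to 12.82 in control and 12.89 to 12.91 in mutant villi, with 3 of 10 higher, 2 lower and 5 not called.

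Gstm4, Gstm6 and Gstm7 did not pass the test. Gstm4 read 8.55, 8.39 and 8.40 in control and 8.94, 8.58 and 8.49 in mutant villi (probe set 10501235), so that control replicate 1 lay above mutant replicate 3. Its difference was 0.22, with a 95% interval from -0.06 to 0.51 and a limma adjusted p of 0.280. Gstm7 read 8.21, 8.27 and 8.24 in control and 8.78, 8.34 and 8.14 in mutant villi (probe set 10501199). Its mutant arrays lay on both sides of the controls, with a difference of 0.18, an interval from -0.17 to 0.53 and a limma adjusted p of 0.486. Both intervals leave room for rises of the size of the lower bound for Gstm2, but not for that of Gstm1 or Gstm3. Without mutant replicate 1 the difference was 0.09 for Gstm4 and 0.00 for Gstm7.

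Gstm6 read 5.43, 5.45 and 5.52 in control and 6.59, 5.83 and 5.82 in mutant villi (probe set 10501208). The groups did not overlap, by 0.30, yet mutant replicate 1 stood well above the other mutant arrays. The difference was 0.61 ± 0.19 (SE), with an interval from 0.17 to 1.06 and a limma adjusted p of 0.0691. Both group means lay under the median signal of the arrays (6.24 to 6.30), and whether the probe set stands above background could not be read from the deposited values. Without mutant replicate 1 the difference was 0.36 with an adjusted p of 0.0344. In all, 6 of the 8 probe sets had groups that did not overlap, where 34.5% of all probe sets did.

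Whether members changed by different amounts was examined in pairs. The difference between signals on the same array was set against genotype for all 28 pairs of probe sets, with a two-sided exact permutation test whose smallest possible p with 3 against 3 arrays is 0.1. This smallest value was reached by 23 of the pairs, and with Benjamini-Hochberg adjustment over the 28 pairs it became 0.122, so no pair passed. The rise of Gstm1 exceeded that of Gstm2 by 2.08 (exact p = 0.1). The 2 Gstm3 probe sets differed in their rise by 0.03 (exact p = 0.7), and Gstm1 differed from them by -0.12 and -0.09 (exact p = 0.4 and 0.6). Gstm4 and Gstm7 differed by 0.04 (exact p = 0.6). Across the 6 arrays, as a description in which the difference between genotypes takes the larger part, r was 0.997 between Gstm1 and Gstm3, 0.924 between Gstm1 and Gstm2 and -0.976 between Gstm1 and Gstm5. No probe sequences were used here, so whether probes of 1 Gstm gene also bind transcripts of another was not tested.

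The mutant arrays also differed among themselves. Mutant replicate 1 gave the highest mutant signal in 7 of the 8 probe sets, and replicate 3 the lowest in 6. Replicate 1 was also the only mutant array with high Xist (10.18) and low Eif2s3y (3.56). A difference linked to sex therefore cannot be told apart from other differences of that array. Against the control mean, Gstm1 stood 3.51, 3.16 and 2.16 higher in mutant replicates 1, 2 and 3. The SD was larger in mutant than in control villi in 8 of 8 probe sets, against 48.8% of all probe sets. Of the 1873 genes called higher, replicate 1 was highest among mutants in 47.1% and replicate 3 lowest in 46.1%. Replicate 3 was lowest in 59.8% of the 338 genes that were also at least 2-fold higher. The neutrophil genes S100a8 and S100a9 ran in the other order on these arrays. S100a8 stood at 6.89, 8.35 and 9.69 against 4.86 to 5.19 in control villi, and S100a9 at 7.94, 8.81 and 10.39 against 5.41 to 5.73. They come from a list of 9 measured immune genes, of which 3 rose, 1 fell and 5 were not called. Mpo, another neutrophil gene of that list, differed by 0.07 and was not called (limma adjusted p = 0.760). The part of S100a8 and S100a9 in the spread of the Gstm genes was not tested.

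The Gstm genes stand side by side on chromosome 3, in the order Gstm5, Gstm7, Gstm6, Gstm3, Gstm2, Gstm1 and Gstm4, with no other annotated protein-coding gene between them. Gstm5, at 1 end of the row, is the member that fell, and the 3 that rose lie next to each other. The 5 protein-coding genes on each side were examined, and 7 of these 10 had a probe set of their own. Their changes ran from -0.01 to 0.47. Ampd2, an AMP deaminase, rose by 0.36 (limma adjusted p = 0.0184) and Gnai3, a G protein subunit, by 0.47 (limma adjusted p = 0.00578), and the other 5 were not called.

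**Figure D2:**
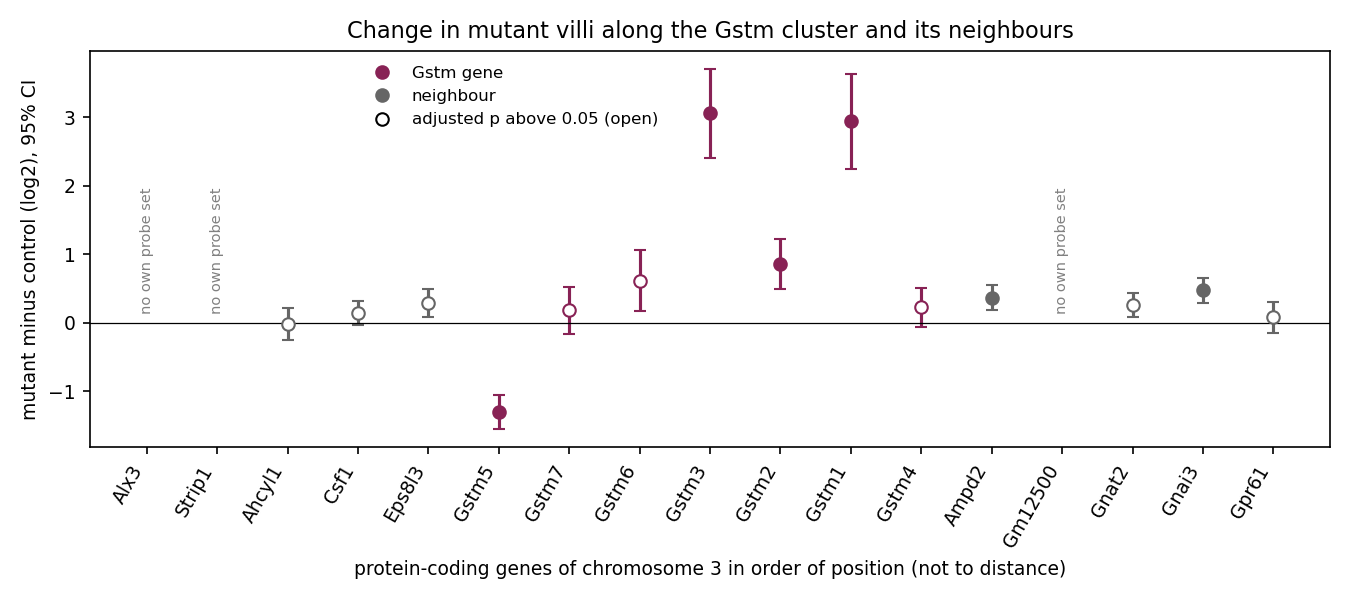
Change in mutant villi (mutant minus control, log2 signal, with 95% interval, vertical axis) for the Gstm genes and the 5 protein-coding genes on each side of them in order along chromosome 3. The neighbours lay between -0.01 and 0.47, Gstm3 and Gstm1 near 3 and Gstm5 at -1.31, and open points did not pass the test.

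Other classes of glutathione S-transferase moved in both directions. Of the 23 listed transferases outside the mu class, 18 had a probe set of their own, and 5 rose, 5 fell and 8 were not called, with a median change of 0.10 beside 0.005 over all genes. Gsta3, an alpha-class enzyme, read 7.10, 6.87 and 6.74 in control and 9.76, 9.32 and 8.83 in mutant villi, a rise of 2.40 (limma adjusted p = 0.000361). Its groups were far apart, and the order of the mutant arrays was that of Gstm1. Mgst2, a membrane-bound transferase, rose by 2.19 (limma adjusted p = 6.46e-05). Gsta4, which acts on lipid aldehydes such as 4-hydroxynonenal, read 7.64, 7.61 and 7.71 in control and 9.78, 8.69 and 7.39 in mutant villi, and its groups overlapped (limma adjusted p = 0.246).

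The pi class was split. Gstp1 rose by 1.01, from 10.34 ± 0.03 to 11.35 ± 0.20 (SD, n = 3 each, limma adjusted p = 0.000661). Gstp3 fell by 1.78, from 9.74 ± 0.06 to 7.96 ± 0.13 (limma adjusted p = 3.34e-05). Genes of the pi class are close copies of one another, so that the signal of 1 may include another. Hpgds, the sigma-class prostaglandin D synthase, fell by 1.69 (limma adjusted p = 3.34e-05). The omega-class Gsto1 rose by 0.94 and the kappa-class Gstk1 by 0.42, while the theta-class Gstt2 fell by 0.58, the zeta-class Gstz1 by 0.69 and Ltc4s, the leukotriene C4 synthase, by 0.77 (limma adjusted p from 0.000262 to 0.0155).

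**Figure D3:**
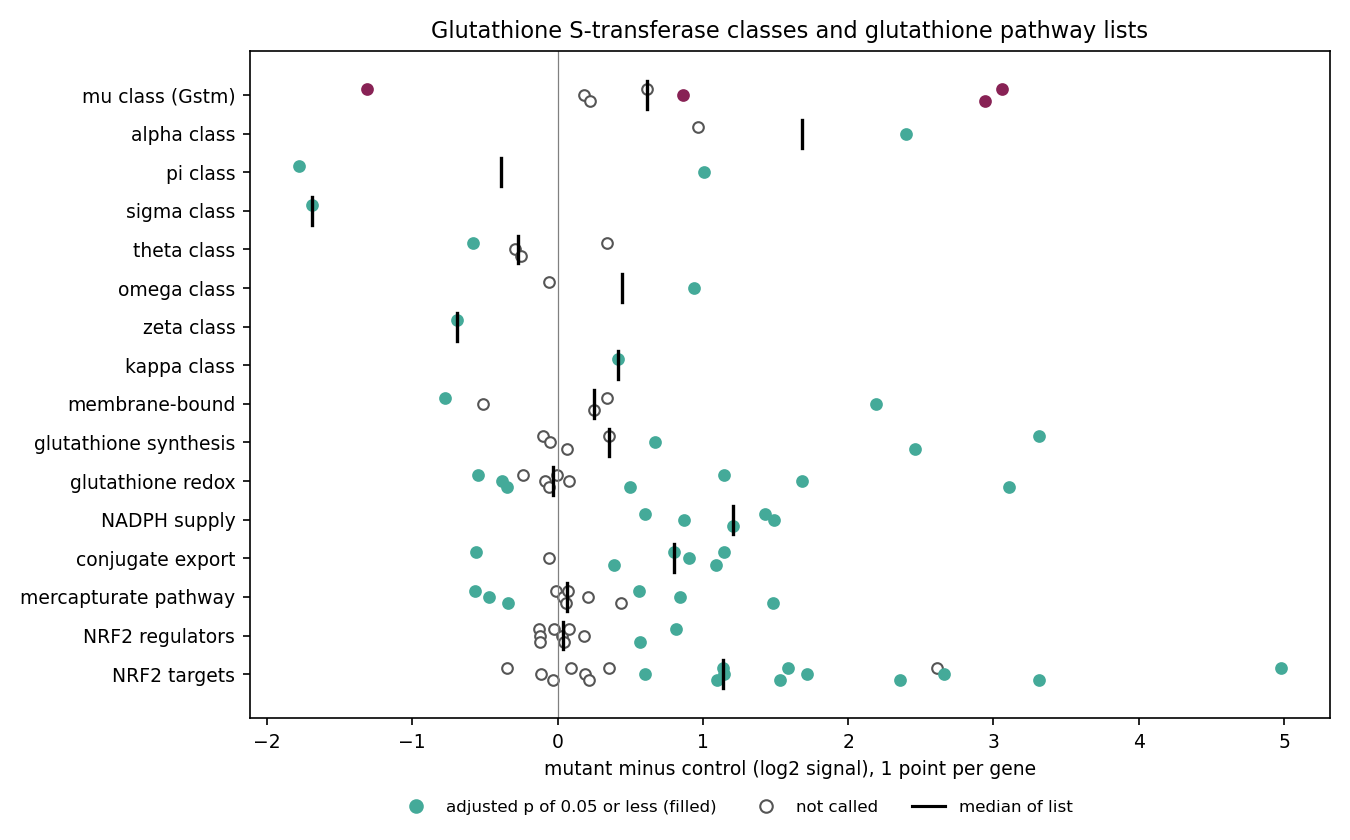
Change in mutant villi (mutant minus control, log2 signal, horizontal axis) of each gene in the transferase classes and glutathione pathway lists, with filled points for genes that passed the test and a bar for the median of each list. The NADPH supply genes all lay above 0 and the transferase classes lay on both sides of it.

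Enzymes that make the glutathione used by these transferases rose in part. Of 7 synthesis genes, 3 rose, 0 fell (limma, also 0 at an unadjusted p under 0.05) and 4 were not called, with a median change of 0.36. Gclc, the catalytic subunit of the rate-limiting ligase, read 9.19, 8.58 and 8.70 in control and 12.81, 12.10 and 11.51 in mutant villi, a rise of 3.32 (limma adjusted p = 0.000404). The groups did not come near each other, and the mutant order was that of Gstm1. Slc7a11, the cystine carrier that brings in the cysteine, rose by 2.46 with mutant replicate 1 at 8.25 and the others at 6.35 and 6.49 (limma adjusted p = 0.00900). Its control values of 4.73, 4.76 and 4.23 lay under the first quartile of the arrays (4.77 to 4.84). The size of the Slc7a11 rise therefore rests on control signal that may lie near background. Gss, the second enzyme of synthesis, rose by 0.67, and Gclm, the modifier subunit of the ligase, differed by 0.36 and was not called (limma adjusted p = 0.00169 and 0.108).

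All 5 measured genes of the pentose phosphate pathway and other NADPH sources rose, with a median of 1.21, or 4 of 5 when Me1, the cytosolic malic enzyme, was read from its dimmer probe set (limma adjusted p = 0.0450 and 0.0549 with its 2 probe sets). NADPH is the reducing power that keeps glutathione reduced. G6pdx, also on this list, had no probe set of its own. Idh1 rose by 1.49, Tkt by 1.43, Pgd by 1.21 and Taldo1 by 0.87. Among 12 measured genes of glutathione and thioredoxin redox cycling, 4 rose, 3 fell and 5 were not called, with a median of -0.03. The risers included Gpx2, the epithelial glutathione peroxidase, by 3.11, Gsr, which regenerates reduced glutathione, by 1.68 and Txnrd1, the cytosolic thioredoxin reductase, by 1.14 (limma adjusted p from 3.54e-05 to 0.000870). Glrx5, a mitochondrial glutaredoxin, fell by 0.55.

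Pumps that carry conjugates out of the cell rose in 5 of 7 measured cases, fell in 1 and were not called in 1, with a median of 0.80. Abcc1 rose by 1.14, Abcc2 by 0.91 and Abcc5 by 0.80. Abcc3, a basolateral pump, rose by 1.09 with the mutant arrays at 8.72, 8.49 and 7.45, the last close to the control arrays at 7.06 to 7.25 (limma adjusted p = 0.0370). Of 12 measured genes that turn conjugates into mercapturates or degrade glutathione, 3 rose, 3 fell and 6 were not called, with a median of 0.07. Dpep1, a dipeptidase of the cell surface, rose by 1.48, Chac1, which cleaves glutathione inside the cell, by 0.84 and Dpep2 by 0.56, whereas Nat8, which acetylates cysteine conjugates, fell by 0.57. The control mean of Dpep2 was 4.68, under the first quartile of the arrays (4.77 to 4.84). The second, dimmer probe set of Dpep2 differed by 0.17 and was not called (limma adjusted p = 0.321), which leaves 2 risers.

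NRF2 regulators were largely not called and many NRF2 targets rose. Of 10 regulators, 2 rose, 0 fell (limma, also 0 at an unadjusted p under 0.05) and 8 were not called, with a median of 0.04. Nfe2l2, which encodes NRF2, differed by -0.02 and Keap1 by 0.03, while Sqstm1, whose product binds KEAP1, rose by 0.81 and Mafk, a small MAF partner, by 0.57. Of 19 targets, 11 rose, 0 fell (limma, 1 at an unadjusted p under 0.05, the biliverdin reductase Blvrb) and 8 were not called, with a median of 1.14, and 3 of the 19 (Gclc, Gclm and Txnrd1) also stand in the lists above. Akr1b8, an aldo-keto reductase, read 6.23, 6.58 and 6.56 in control and 12.07, 11.86 and 10.37 in mutant villi, a rise of 4.98 (limma adjusted p = 0.000208). Nqo1, a quinone reductase, rose by 2.66 and Ptgr1, a prostaglandin reductase, by 2.36. Hmox1, a target that was not called, read 12.91, 12.21 and 9.22 in mutant villi against 8.73 to 8.97 in control villi (limma adjusted p = 0.0646). Unlike Gstm1, Nqo1 and Ptgr1 were highest in mutant replicate 2. These lists were written with earlier results of these data known, so their counts are a description beside the Gstm values.

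**Figure D4:**
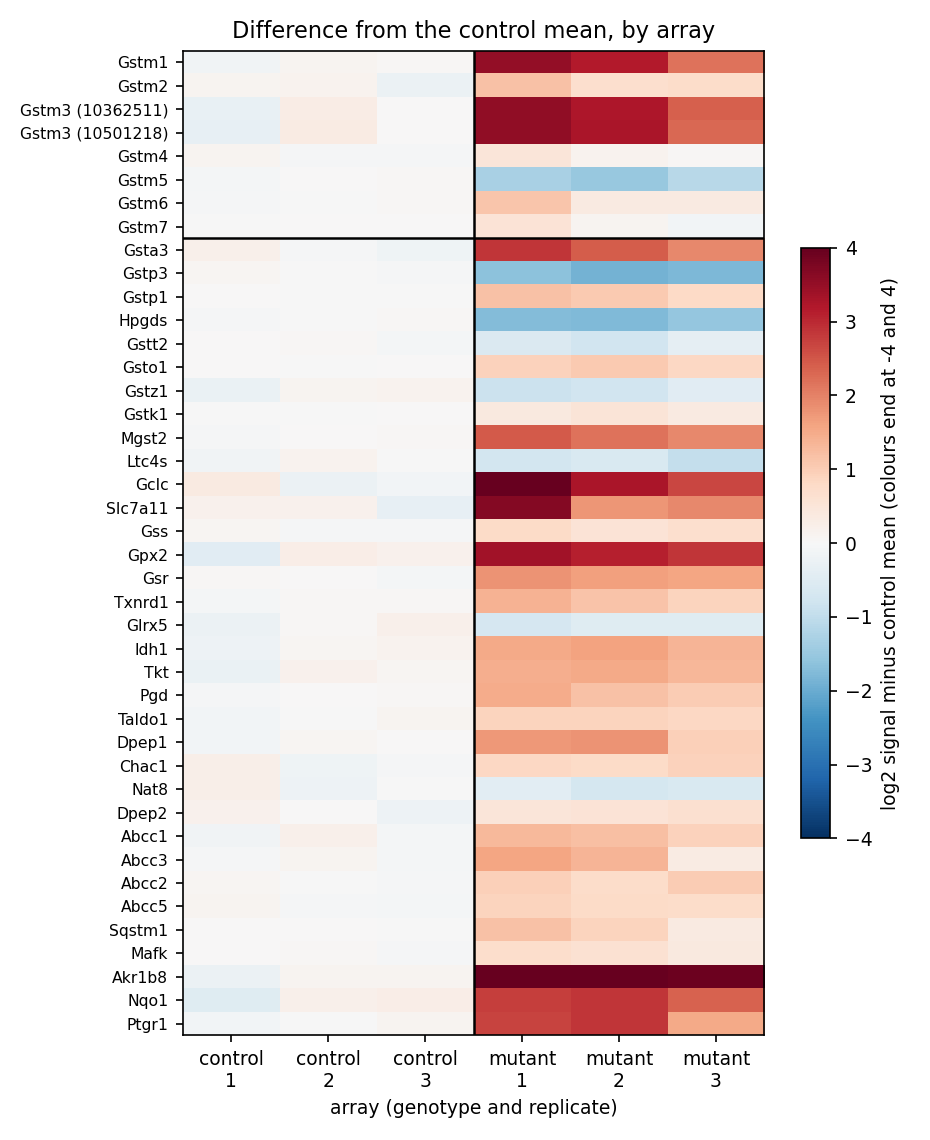
Difference of each array from the control mean (log2 signal, colour from -4 to 4) for the Gstm probe sets above the line and called transferase, glutathione and NRF2 genes below it, over 3 control and 3 mutant arrays. Rows such as Gstm1, Gstm3, Gsta3, Gclc and Ptgr1 are paler in mutant replicate 3 than in mutant replicate 1.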

How the data were processed

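RNA of villi from 3 control and 3 mutant samples was hybridised to Affymetrix whole-transcript mouse arrays. The authors deposited log2 signals for each array, already normalized. How they were normalized is not given in the sources, and the values hold no background measure. Probe sets were named from the platform annotation (21789 with a single symbol, 1621 with several, 6767 not listed), and 21698 symbols were updated by Entrez identifier. Where a gene of a list had several probe sets, the one with the highest mean was used.

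The genotypes were set against each other by lmFit and eBayes of limma 3.58.1 (R 4.3.3) on every probe set, and calls were made at a Benjamini-Hochberg adjusted p of 0.05 or less. Per-array differences between Gstm probe sets were compared by exact permutation tests in scipy 1.17.1. The number of arrays limits the precision. All Gstm probe sets are named, together with up to 4 called members of largest change per list, the 5 genes on each side of the cluster, and the 5 genes most like Gstm1 and Gstm5. Names outside this rule (Gsta4, Gclm, Nfe2l2, Keap1, Blvrb, Hmox1, Cyp1a1, Me1, S100a8, S100a9, Mpo, Lgr5 and Olfm4) were chosen after their values were seen. The members and the gene lists were chosen with earlier results of these data known. Promoter windows and gene order came from RefSeq (GRCm38.p6). The alternatives were quantile normalization, median centring, other variance models, array weights, a replicate block, filters, an offset of 32, averaged controls, a 2-fold criterion and leaving out each array.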

Additional observations from a re-analysis of the deposited data

How the results depend on the processing

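Across 127 refits of the 8 Gstm probe sets under the alternatives, 125 kept their side of the threshold, 0 lost a call and 0 reversed direction. The exceptions were for Gstm6, which passed without mutant replicate 1 (0.36, limma adjusted p = 0.0344) and with Y-linked transcript level as a covariate (0.64, adjusted p = 0.0288), the latter chosen after seeing the data. The number of Gstm probe sets called higher was 3 to 5 and lower 1 throughout. It was 3 with a 2-fold criterion, which Gstm2 missed. The lowest and highest changes were 2.66 and 3.33 for Gstm1, 0.70 and 0.96 for Gstm2, 2.81 and 3.39 for Gstm3 with probe set 10362511, and -1.41 and -1.21 for Gstm5, with adjusted p up to 0.00448, 0.0313, 0.00308 and 0.00213. Gstm4 ran from 0.09 to 0.31 and Gstm7 from 0.00 to 0.32, both lowest without mutant replicate 1 and never called. At 0.00 that Gstm7 refit held no direction, and it counts among the 125 only for its side of the threshold. Leaving out dim probe sets removed Gstm6. With the dimmest probe set per gene, NADPH supply had 4 risers in place of 5 and the mercapturate pathway 2 in place of 3, and the other list counts were the same. With the replicate number as a block, 4 Gstm probe sets were higher and 1 lower, as without it, and over all probe sets 2381 were higher and 2576 lower. Same-numbered arrays deviated together only weakly (r = 0.174, 0.039 and 0.119 over probe sets), and control replicate 2 correlated best with mutant replicate 3, so the numbers were not taken to pair the arrays. Counts over all probe sets dropped by more than 1.5 times with mutant replicate 2 left out (1561 higher and 1688 lower) and with control replicate 2 left out (1590 and 1746), and lower calls also with control replicate 3 left out (1764).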

Other observations

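Genes whose signal ran most like that of Gstm1 over the 6 arrays, among 658 other genes with group means at least 1 log2 unit apart, were Hbegf, a growth factor of the EGF family (r = 0.9988, 8.32 in control and 9.82 in mutant villi), Akr1b8 (r = 0.9978, 6.46 and 11.43), Gcnt1, an enzyme that branches O-glycans (r = 0.9977, 5.86 and 8.45), Efnb2, an ephrin ligand (r = 0.9967, 7.17 and 8.52), and Rasgef1b (r = 0.9965, 5.46 and 6.94). Those most like Gstm5 were Id2, an inhibitor of helix-loop-helix factors (r = 0.9983, 10.49 and 8.55), Tert, the reverse transcriptase of telomerase (r = 0.9982, 7.42 and 6.28), Smcp (r = 0.9982, 11.25 and 8.41), Abcb11, a bile salt pump (r = 0.9981, 9.90 and 7.14), and Cxxc5 (r = 0.9981, 10.06 and 8.85). The 6 arrays share 1 contrast between genotypes, which sets most of each r.

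Of 13 measured genes of the AhR, PXR and CAR receptors and their targets, 4 rose, 1 fell and 8 were not called, with a median change of 0.19. Cyp3a13 rose by 1.22, Cyp2c55 by 1.00, Cyp1b1 by 0.93 and Ahr, the receptor itself, by 0.46. Cyp1b1, at 5.12 in control and 6.05 in mutant villi, lay under the median signal of the arrays (6.24 to 6.30). Cyp1a1, the classic AhR target, differed by -0.10 and was not called (limma adjusted p = 0.528). Its means of 4.54 in control and 4.44 in mutant villi lay under the first quartile of the arrays (4.77 to 4.84). Whether Cyp1a1 stands above background could not be read from the deposited values.

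Over all genes, 9.39% were higher and 10.1% lower. Among markers of other cells of the villus and its surroundings, 6 of 8 proliferation genes, 3 of 5 stem cell markers and 3 of 7 mesenchymal genes rose. The stem cell markers Lgr5 and Olfm4 were not called, with changes of 0.14 and -0.95 (limma adjusted p = 0.752 and 0.184). None of the 6 smooth muscle or 5 tuft cell genes was called (limma, also 0 at an unadjusted p under 0.05). Of 9 immune genes 3 rose and 1 fell. Of 5 Paneth cell genes 2 rose and 2 fell, and of 7 enteroendocrine genes 1 rose and 2 fell. Of 5 endothelial genes 1 fell, of 4 neuronal and glial genes 1 fell, and neither of 2 erythroid genes was called.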
